A study of Mus musculus with 9 samples.

Results

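The strain ratio of 10 genes of bile acid synthesis and uptake was followed in liver, kidney and brain of SJL/J and C57BL/6J mice, 2 inbred laboratory strains. The genes were Cyp7a1, Hsd3b7, Cyp8b1, Cyp27a1, Cyp7b1, Slc27a5, Baat, Slc10a1, Abcb11 and Nr0b2. They were taken by symbol from the 15096 genes with a probe of their own on a spotted array of 23040 probes, and all 10 were found, each on 1 probe. On each of 9 arrays, 3 per tissue, RNA pooled from 5 male SJL/J mice aged 8 weeks and carrying a far-red dye was set against RNA pooled from 5 male C57BL/6J mice of the same age carrying an orange dye, without exchange of the dyes. Within a tissue the 3 arrays repeat the hybridisation of 1 pair of pools, so each error below (SD, n = 3 arrays) leaves out the spread between mice. Each p-value below leaves it out as well, and so bears on these pools with these dyes rather than on the strains. A dye effect of a probe adds to its strain ratio. The genes were chosen by their function with their log2 strain ratios on these same arrays in view, so their values are a description and carry no p-value.

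Bile acids are made from cholesterol in hepatocytes. The classic route opens with Cyp7a1 and the acidic route with Cyp27a1 and Cyp7b1. The products are joined to taurine, pumped into bile, taken up again in the gut and returned to the liver by the portal blood. Bile acids bind the nuclear receptor FXR (Nr1h4), which raises Nr0b2 and thereby lowers their own synthesis.

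The deposited values are log ratios taken as log2 of SJL/J over C57BL/6J. Neither the base nor the direction is stated in the sources used here. The direction was inferred from the titles, which name SJL/J ahead of C57BL/6J, and from the dyes. Nnt, a gene that has lost exons in C57BL/6J, had ratios of 0.15 to 1.06 over the 9 arrays. The table holds ratios without intensities, so neither the level of a gene in a tissue nor the presence of tissue markers could be checked. Arrays of liver or of kidney correlated with each other at 0.77 to 0.79 over all probes, and so did brain replicates 1 and 2 (0.76). The array labelled brain replicate 3 correlated with the other brain arrays at 0.52 to 0.57 and with the kidney arrays at 0.58 to 0.63. Brain values are therefore also given without it. In whole tissue, fewer cells of a type and less RNA per cell cannot be told apart.

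In liver all 10 genes had a mean ratio below 0, and Hsd3b7 stood far below the others at -2.23. The remaining 9 genes lay between -0.87 and -0.11. On 3 of 3 liver arrays 8 genes were below 0, against 28.4% of the 21262 genes and unassigned probes on the arrays. The same 8 genes passed limma's test against 0 in liver, all as lower, against 12.2% of all rows called lower and 25.4% called in either direction. Since the genes were chosen with these ratios in view, nothing is read from either share. The median of the 10 genes was -0.57 in liver, -0.05 in kidney and -0.04 in brain, beside 0.02, 0.03 and 0.01 over all rows.

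**Figure D1:**
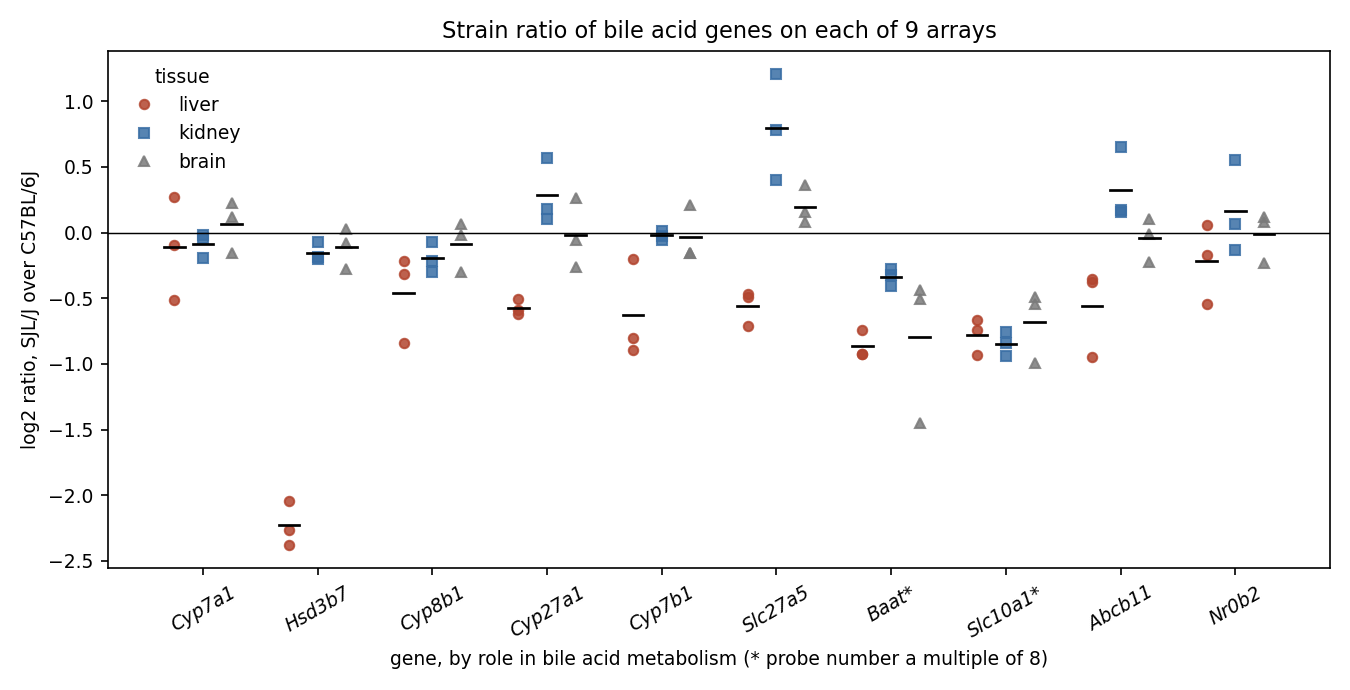
Log2 strain ratio, SJL/J over C57BL/6J (vertical axis), of the 10 bile acid genes (horizontal axis) on each of 9 arrays, with 3 points per tissue and a bar at their mean. Hsd3b7 lies between -2.38 and -2.05 in liver and near 0 in kidney and brain, Slc27a5 is above 0 on all kidney arrays, and the probes marked with an asterisk, Baat and Slc10a1, are below 0 in every tissue.

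Promoter sequence was at hand for 6 of the 10 genes, from RefSeq on build GRCm38.p6, and the 250 bases before each start are used here. A single build cannot show differences between the strains. Of the windows that hold a searched motif, those of Cyp8b1, Nr0b2 and Abcb11 are shown and that of Slc10a1 is not. The window of Hsd3b7 is shown because this gene had the lowest liver ratio. Lower case marks the window, 5′ to 3′ along the gene, and capitals mark a motif. Hsd3b7 lies at chr7:127800359-127800608 on the plus strand, Cyp8b1 at chr9:121916306-121916555 on the minus strand, Nr0b2 at chr4:133553126-133553375 on the plus strand and Abcb11 at chr2:69342617-69342866 on the minus strand.
Hsd3b7: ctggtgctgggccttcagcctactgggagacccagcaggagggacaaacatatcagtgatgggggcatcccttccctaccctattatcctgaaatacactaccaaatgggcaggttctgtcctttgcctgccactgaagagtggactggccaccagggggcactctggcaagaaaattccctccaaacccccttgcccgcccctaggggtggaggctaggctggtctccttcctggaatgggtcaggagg
Cyp8b1: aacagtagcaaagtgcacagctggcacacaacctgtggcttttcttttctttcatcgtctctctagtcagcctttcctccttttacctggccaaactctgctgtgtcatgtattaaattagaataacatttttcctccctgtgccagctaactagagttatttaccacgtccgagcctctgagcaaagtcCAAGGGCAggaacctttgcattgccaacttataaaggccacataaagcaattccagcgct
Nr0b2: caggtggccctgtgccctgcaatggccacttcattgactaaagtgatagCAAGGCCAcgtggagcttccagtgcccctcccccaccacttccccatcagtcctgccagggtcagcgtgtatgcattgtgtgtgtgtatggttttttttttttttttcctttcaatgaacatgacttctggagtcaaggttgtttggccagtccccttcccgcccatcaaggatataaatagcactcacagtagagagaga
Abcb11: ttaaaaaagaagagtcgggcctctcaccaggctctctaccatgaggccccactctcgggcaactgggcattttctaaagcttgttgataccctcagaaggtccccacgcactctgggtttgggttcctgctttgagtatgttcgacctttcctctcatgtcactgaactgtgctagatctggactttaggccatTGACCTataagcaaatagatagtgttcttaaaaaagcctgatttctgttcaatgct

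The motifs were searched on both strands, and no match overlapped another. CAAGGNCA, a site bound by the liver receptor NR5A2, was found in Cyp8b1 as CAAGGGCA, 60 to 53 bases before the start, and in Nr0b2 as CAAGGCCA, 201 to 194 bases before it. It occurs in 5.53% of 32851 promoter windows of this length. AGGTCA, the core of nuclear receptor sites, was found on the opposite strand of Abcb11 (TGACCT, 56 to 51 bases before the start) and in 1 of 2 windows of Slc10a1, and occurs in 14% of all windows. Neither GTTAAT, the core of HNF1 sites (6.43% of windows), nor the FXR inverted repeat, which joins AGGTCA to its reverse complement with 1 base between (0.00609%), was present in these letters in the windows of the 6 genes. Only exact letters were searched, and aggccatTGACCT in the window of Abcb11 differs from the FXR repeat at 1 base. Hsd3b7 and Cyp27a1 had no match to any of the 4 motifs.

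Cyp7a1, the rate-limiting hydroxylase of the classic route, had log2 ratios of 0.27, -0.51 and -0.09 on liver replicates 1, 2 and 3. The liver arrays thus fell on both sides of 0, and the mean of -0.11 ± 0.39 (SD, n = 3) was smaller than their spread. In kidney Cyp7a1 had -0.19, -0.04 and -0.02, and in brain 0.22, 0.12 and -0.15, with a brain mean of 0.17 without replicate 3 and 0.06 with it. The ranges of the 3 tissues overlapped for this gene.

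Hsd3b7, the dehydrogenase that acts on the sterol ring after Cyp7a1 or Cyp7b1 and so serves both routes, had -2.05, -2.26 and -2.38 in liver. The mean was -2.23 ± 0.17 (SD, n = 3), a linear ratio of 0.213. A lower liver mean was found in 0.132% of all rows. In kidney the gene had -0.08, -0.19 and -0.21, and in brain -0.08, -0.28 and 0.03. Every liver array lay below every kidney and brain array, whereas kidney and brain overlapped. Without brain replicate 3 the brain mean was -0.18, against -0.11 with it.

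Cyp8b1, the sterol hydroxylase that is needed for cholic acid, had -0.22, -0.32 and -0.84 in liver, with a mean of -0.46 ± 0.34 (SD, n = 3). Liver replicate 3 set much of that mean. Kidney values were -0.07, -0.21 and -0.30, and brain values -0.02, 0.06 and -0.30. The brain mean was 0.02 without replicate 3 and -0.09 with it, on either side of 0. The liver range reached into those of kidney and brain.

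On the acidic route, Cyp27a1, a mitochondrial sterol hydroxylase, had -0.62, -0.59 and -0.51 in liver. Its SD of 0.06 around a mean of -0.57 was the smallest of the 10 genes in liver. In kidney Cyp27a1 had 0.18, 0.10 and 0.57, all above 0, and in brain -0.06, -0.26 and 0.26. The liver arrays lay below all kidney and brain arrays. The brain mean was -0.16 without replicate 3 and -0.02 with it.

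Cyp7b1, the oxysterol hydroxylase of the acidic route, which in male mouse liver is more active than in female liver, had -0.80, -0.89 and -0.20 in liver. Liver replicate 3 stood apart from the other liver arrays, and the mean was -0.63 ± 0.38 (SD, n = 3). Kidney values were close to 0 and to each other, at -0.05, -0.03 and 0.01. Brain values were -0.15, -0.16 and 0.21, with replicate 3 on the other side of 0 and a mean of -0.16 without it. All liver arrays were below all kidney and brain arrays, by a narrow margin.

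Of the conjugating enzymes, Slc27a5, the ligase that activates bile acids with coenzyme A, had opposite signs in liver and kidney. In liver it had -0.49, -0.47 and -0.71, a mean of -0.56 ± 0.13 (SD, n = 3). In kidney it had 0.78, 0.40 and 1.20, a mean of 0.80 ± 0.40, and in brain 0.16, 0.08 and 0.36. It was the gene with the highest mean of the 10 in kidney and in brain. The brain mean of 0.20 was 0.12 without replicate 3.

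Baat, the transferase that joins activated bile acids to taurine or glycine, had -0.92, -0.74 and -0.93 in liver, a mean of -0.87 ± 0.11 (SD, n = 3). In kidney it had -0.41, -0.33 and -0.28. In brain it had -0.51, -1.45 and -0.44, so that replicate 2 stood below the other brain arrays and the mean was -0.80 ± 0.56. The brain mean was -0.47 without replicate 2 and -0.98 without replicate 3. The probe number of Baat is a multiple of 8, a class of 2880 probes with low ratios. The 1951 named probes of that class other than Gapdh had medians of -0.19 in liver, -0.39 in kidney and -0.19 in brain. Baat lay at the percentile 8.66 of these probes in liver, 55.1 in kidney and 12.5 in brain.

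Among the carriers, Slc10a1 takes up conjugated bile acids from the portal blood together with sodium. It had -0.94, -0.66 and -0.74 in liver, -0.75, -0.84 and -0.94 in kidney, and -0.996, -0.493 and -0.544 in brain. The 3 tissues overlapped, with means of -0.78 ± 0.14, -0.84 ± 0.09 and -0.68 ± 0.28 (SD, n = 3 each), and without brain replicate 3 the brain mean was -0.74. Its probe number is also a multiple of 8, and it lay at the percentile 11.02 of the named probes of that class in liver, 19.5 in kidney and 14.9 in brain. How far this class sets the ratios of Baat and Slc10a1 was not tested.

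Abcb11, the pump that exports bile salts into the canaliculus, had -0.35, -0.95 and -0.38 in liver, a mean of -0.56 ± 0.34 (SD, n = 3). Liver replicate 2 was the low array. In kidney it had 0.65, 0.17 and 0.15, and in brain -0.01, -0.22 and 0.10. The liver arrays lay below all kidney and brain arrays, and the kidney arrays above all brain arrays. The brain mean was -0.12 without replicate 3.

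Nr0b2, the receptor without a DNA binding domain that represses Cyp7a1, had 0.05, -0.54 and -0.17 in liver. The mean of -0.22 ± 0.30 (SD, n = 3) was smaller than the spread, with replicate 2 again the low array. In kidney the gene had 0.07, -0.13 and 0.55, and in brain 0.08, -0.23 and 0.12, with a brain mean of -0.08 without replicate 3. All 3 tissues overlapped.

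In order of the liver means the genes ran from Hsd3b7 through Baat, Slc10a1, Cyp7b1, Cyp27a1, Abcb11, Slc27a5, Cyp8b1 and Nr0b2 to Cyp7a1. Hsd3b7 and Baat were 1.36 apart and their arrays did not overlap. Every other pair of neighbours in that order overlapped, with gaps of 0.004 to 0.24 between means. Between tissues, 6 of 10 genes had all liver arrays below all kidney arrays, against 22.3% of all rows, and 5 of 10 had all liver arrays below all brain arrays, against 14.5%. Of the 10 genes 3 (Baat, Abcb11 and Slc27a5) had all kidney arrays above all brain arrays, against 14% of all rows. In kidney 2 genes passed the test, Slc27a5 as higher and Slc10a1 as lower, against 29.6% of all rows in either direction. In brain Baat and Slc10a1 passed as lower, against 20.7% of all rows, and both passed again without brain replicate 3, against 22.1%. The genes were chosen with these ratios in view, so nothing is read from these counts and calls.

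The liver count rested in part on single arrays. Without liver replicate 2, 5 genes passed, and Abcb11, Cyp7b1 and Cyp8b1 no longer did. Cyp7b1 and Slc27a5 were lost without replicate 1, and Cyp8b1 and Slc27a5 without replicate 3. Hsd3b7, Cyp27a1, Baat and Slc10a1 passed with any liver array left out. All of these genes were chosen with their ratios on the same arrays in view. Passing again therefore describes the values and lends the genes no support. The share of all rows called without a liver array was not counted.

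Several of the liver values changed when medians of probes grouped by their number were subtracted. Probe numbers were cut into lines of 24 without spot coordinates, so a line need not be a row of spots on the array. The liver medians of the lines ran from -0.89 to 2.49 around a median of 0.005. The lines of all 10 genes lay below that median. The line of Abcb11, at -0.50 with the gene itself included, lay at the percentile 0.313 of the 960 lines. All 23 other spots of its line were below 0, from -3.28 to -0.17, and 3 Gapdh spots among them had -0.53 to -0.47, beside a median of -0.37 over the 232 Gapdh spots in liver. With the medians of lines and then of columns (the 24 places within a line) subtracted on each array, Abcb11 had -0.08 ± 0.38 in liver (SD, n = 3), Baat -0.36 ± 0.17 and Slc10a1 -0.46 ± 0.08. Hsd3b7 had -2.05 ± 0.16 and Cyp27a1 -0.52 ± 0.06, close to their deposited values, and Cyp7a1, at 0.13 ± 0.23, lay above 0. On that scale 3 of the 10 genes passed in liver: Hsd3b7, Cyp27a1 and Slc10a1. These 3 calls rest on ratios known when the genes were chosen, so they only describe the values. The share of all rows called on that scale was not counted beside them. In kidney the subtraction moved Baat from -0.34 to 0.01 and Slc10a1 from -0.84 to -0.50. In brain it moved Baat from -0.80 to -0.59 and Slc10a1 from -0.68 to -0.49. The part of line and column in these ratios was not tested.

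**Figure D2:**
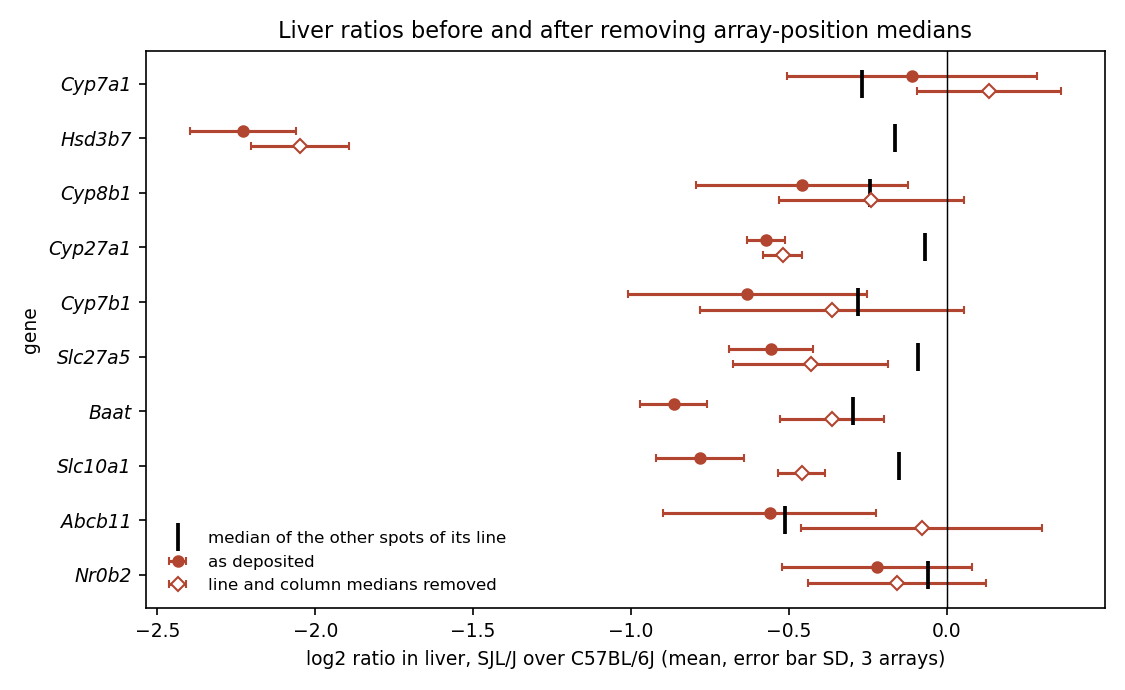
Mean log2 strain ratio in liver (horizontal axis, error bars SD over 3 arrays) of the 10 genes (vertical axis) as deposited (filled circles) and with line and column medians subtracted (open diamonds), and the median of the other 23 spots of each gene's line (bars). Hsd3b7 remains near -2.05, whereas Abcb11 moves to -0.08, close to 0, and the bar of its line lies at -0.51. Lines and columns were taken from the probe numbers, without spot coordinates.

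Other genes of bile acid metabolism were then counted in liver, with limma's test and Benjamini-Hochberg adjustment over all 21262 rows. These genes were also listed with earlier results of these data known, so their counts and p-values are not an independent test. Of 51 listed genes 42 were measured, of which 17 were lower in the SJL/J pool, 2 were higher and 23 did not pass, against 12.2% lower and 13.2% higher among all rows. Their median liver ratio was -0.26, beside 0.02 over all rows. Without liver replicate 1, 2 or 3 the calls numbered 12, 12 and 11 in place of 19. They numbered 11, of which 10 lower, with line and column medians subtracted, and 11 of 33 measured, of which 10 lower, without probes at multiples of 8. The share of all rows called in these settings was not counted.

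Of 13 other enzymes and carriers of synthesis 5 fell, 8 did not pass and none rose at the adjusted threshold or at an unadjusted p under 0.05, with a median of -0.29. Slc27a2, a ligase of very long chain fatty acids and bile acid precursors, fell by 1.38 on the log2 scale (SD 1.07, n = 3, adjusted p = 0.0114, limma), but did not pass without liver replicate 1 (-0.82, adjusted p = 0.0720, limma) or replicate 3 (-1.42, adjusted p = 0.0524, limma), nor with line and column medians subtracted (-0.99, adjusted p = 0.0554, limma). Hsd17b4 and Abcd3 serve the shortening of the side chain in peroxisomes, as enzyme and as importer. Hsd17b4 had -1.09 ± 0.43 (adjusted p = 0.000475, limma) and Abcd3 -0.97 ± 0.31 (adjusted p = 0.000303, limma). Akr1c14, a hydroxysteroid dehydrogenase at a multiple of 8, had -1.07 ± 0.45 (adjusted p = 0.00207, limma). These genes also act on fatty acids or steroids outside bile acid synthesis.

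Of 13 other carriers 7 fell, 1 rose and 5 did not pass in liver, with a median of -0.39. Abcc3, an efflux pump of the basolateral membrane at a multiple of 8, fell furthest, at -1.85 ± 0.13 (SD, n = 3, adjusted p = 5.35e-06, limma). At the canaliculus, the phospholipid exporter Abcb4 had -0.91 ± 0.74 (adjusted p = 0.0111), the conjugate pump Abcc2 -0.68 ± 0.49 (adjusted p = 0.0155) and the drug pump Abcb1a -0.95 ± 0.69 (adjusted p = 0.00615, limma for all). Liver replicate 2 carried much of these means, which without it were -0.53 for Abcb4 (adjusted p = 0.0556), -0.42 for Abcc2 (adjusted p = 0.106) and -0.56 for Abcb1a (adjusted p = 0.0119, limma for all). Abcb4 also did not pass without replicate 3, nor Abcc2 without replicate 1. Slc10a2, the sodium-dependent carrier of the ileum and bile ducts, rose by 0.53 ± 0.18 (adjusted p = 0.00686, limma), but did not pass without liver replicate 2 (0.45, adjusted p = 0.0533, limma). Slco1b2, an organic anion carrier of hepatocytes named here after its values were seen, had -0.39 ± 0.24 (adjusted p = 0.0174, limma), but its 3 probes gave -0.86, -0.21 and -0.10, and it did not pass without liver replicate 1 (-0.25, adjusted p = 0.132, limma) or replicate 3 (-0.44, adjusted p = 0.0505, limma), nor with line and column medians subtracted (-0.12, adjusted p = 0.428, limma).

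Of 16 regulators 5 fell, 1 rose and 10 did not pass in liver, with a median of -0.21. Nr1i3, the receptor CAR, fell by 1.20 on the log2 scale (SD 0.53, n = 3, adjusted p = 0.000597, limma) and Cebpa, a transcription factor of hepatocytes, by 0.82 (SD 0.35, adjusted p = 0.000933, limma). Prox1, a homeobox corepressor of Cyp7a1, had -0.36 ± 0.06 (adjusted p = 0.0284), and Rxra, the partner of FXR, at a multiple of 8, had -0.27 ± 0.12 (adjusted p = 0.0482, limma for both). With line and column medians subtracted Prox1 did not pass (-0.12, adjusted p = 0.460, limma), and Rxra had 0.20 (adjusted p = 0.0901, limma), on the other side of 0. The call of Foxa2 as higher (0.45 ± 0.41, adjusted p = 0.0493, limma) rested on 1 probe of 2, at 1.12 and -0.23, and was lost without liver replicate 1 or replicate 3 (0.21 without replicate 3, adjusted p = 0.330, limma). Prox1 and Rxra did not pass with any 1 liver array left out, and Rxra and Foxa2 were also lost without some arrays of the other tissues. Nr1h4, the receptor FXR, had -0.19 ± 0.25 (adjusted p = 0.315) and Nr5a2, at a multiple of 8, -0.13 ± 0.35 (adjusted p = 0.605, limma for both).

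**Figure D3:**
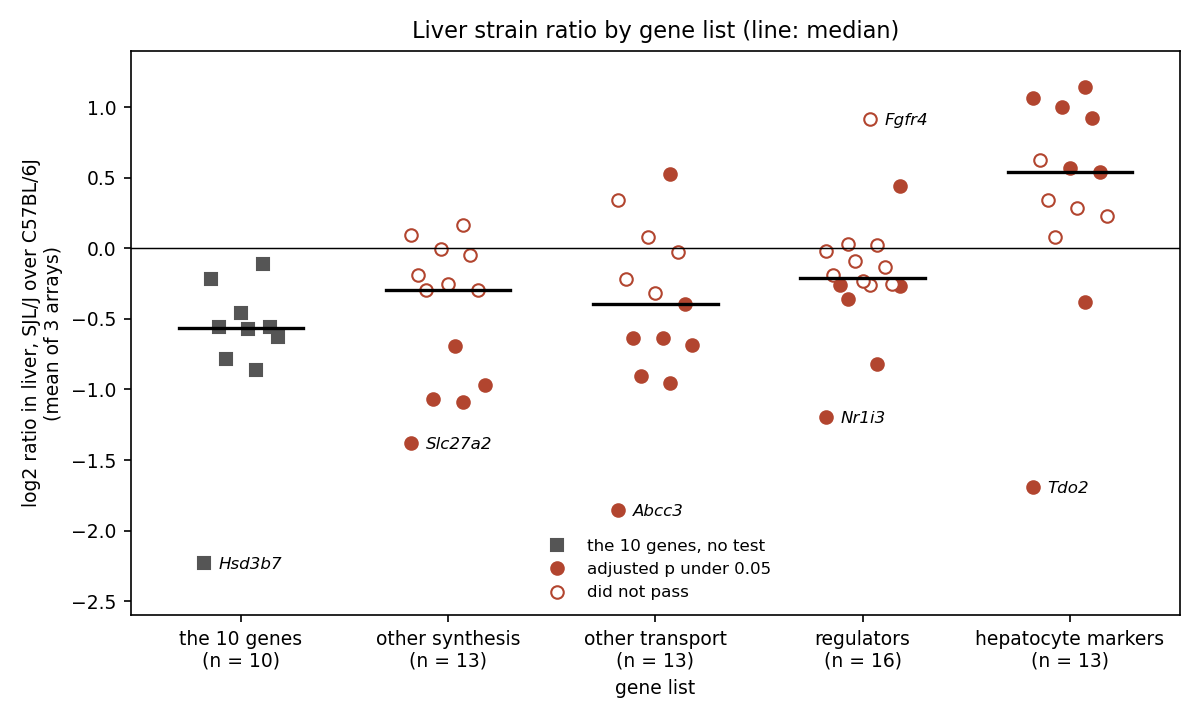
Mean log2 strain ratio in liver (vertical axis, 3 arrays) of the 10 genes (grey squares, no test), of other genes of synthesis, transport and regulation, and of hepatocyte markers (circles, filled where the adjusted p was under 0.05), with a bar at the median of each list. The medians are -0.57, -0.29, -0.39, -0.21 and 0.54, so the median of the hepatocyte markers lies above 0 and those of the bile acid lists below it, while single markers lie on either side of 0.

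In kidney 7 of the 42 other genes fell and 3 rose, against 14.6% and 15.1% of all rows, and without probes at multiples of 8 the count was 5 of 33, of which 2 fell. Fgfr4, the receptor for the gut hormone FGF15, had the highest kidney ratio, 1.47 ± 1.06 (SD, n = 3, adjusted p = 0.0132, limma). Acot8, a peroxisomal thioesterase, had 0.68 ± 0.61 (adjusted p = 0.0190) and Ch25h, a cholesterol hydroxylase, 0.58 ± 0.23 (adjusted p = 0.00318, limma for both). Acot8 did not pass without kidney replicate 1 (0.33, adjusted p = 0.102, limma), and Fgfr4 did not without replicate 2 (1.08, adjusted p = 0.103, limma) or replicate 3 (1.25, adjusted p = 0.0888, limma). Of the 7 genes called as lower 5 lay at multiples of 8, among them Abcg2, an efflux pump, at -1.34 ± 0.27 (adjusted p = 7.46e-05), Nr5a2 at -1.12 ± 0.08 (adjusted p = 0.000992), Nr1i2, the receptor PXR, at -0.90 ± 0.06 (adjusted p = 5.83e-05) and Cyp39a1, an oxysterol hydroxylase, at -0.62 ± 0.16 (adjusted p = 0.00468, limma for all). With line and column medians subtracted, Cyp39a1 had -0.19 (adjusted p = 0.318, limma) and no longer passed. On that scale Abcg2 (-1.15), Nr5a2 (-0.79) and Nr1i2 (-0.40) passed. Off the multiples of 8, Nr1h4 (-0.45 ± 0.06, adjusted p = 0.0274) and Vdr (-0.38 ± 0.02, adjusted p = 0.0341, limma for both) were also called as lower. Neither passed with any 1 kidney array left out. With medians subtracted Nr1h4 did not pass (-0.13, adjusted p = 0.566, limma), while Vdr did (-0.34, adjusted p = 0.0430, limma).

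In brain 6 of the 42 genes fell and 1 rose, against 9.96% and 10.7% of all rows, and without brain replicate 3 the calls again numbered 7. Abcg2, Nr5a2 and Nr1i2 were in both sets, while Atp8b1, Cyp39a1, Fabp6 and Fgf15 did not pass without that array. Without brain replicate 2 only Abcg2 and Nr5a2 passed. Abcg2 had -1.76 ± 0.12 (SD, n = 3, adjusted p = 3.28e-05, limma), Nr5a2 -0.94 ± 0.47 (adjusted p = 0.00413, limma) and Cyp39a1 -0.44 ± 0.04 (adjusted p = 0.0302, limma), all at multiples of 8. Fgf15 had -0.72 ± 0.62 (adjusted p = 0.0390, limma), and Fabp6, a bile acid binding protein of the ileum, -0.27 ± 0.05 (adjusted p = 0.0417, limma). Atp8b1, a phospholipid flippase of the canaliculus, rose by 0.45 ± 0.02 (adjusted p = 0.0443, limma). Atp8b1, Cyp39a1 and Fabp6 did not pass with any 1 brain array left out, and Fgf15 had -0.38 without brain replicate 3 (adjusted p = 0.188, limma). Of the 7 genes, Abcg2 (-1.50), Fgf15 (-0.78) and Nr5a2 (-0.73) passed in brain with line and column medians subtracted. Nr1i2 (0.006), Cyp39a1 (-0.30), Atp8b1 (0.31) and Fabp6 (-0.23) did not.

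The strain ratio of the other genes was then compared between tissues by contrasts in the same limma fit, in which a dye effect common to both tissues cancels. Liver minus kidney called 11 of 42 as lower and 3 as higher, against 9.35% and 9.83% of all rows. Liver minus brain called 7 as lower and 1 as higher, against 4.24% and 5.13%. Kidney minus brain called only Nr1i2, as lower, against 2.68% lower and 2.65% higher among all rows, and Nr1i2 did not pass with any 1 kidney array left out, nor without brain replicate 1 or 2. Without liver replicate 1 or without kidney replicate 1, liver minus kidney called 9 in all, and without probes at multiples of 8 it called 7 of 33. Hsd17b4 differed by -1.23 between liver and kidney (adjusted p = 0.00334, limma) and by -1.14 between liver and brain (adjusted p = 0.00776, limma). Abcc3 differed by -1.55 and -1.84 (adjusted p = 0.000425 and 0.000157, limma). Among the 10 genes, the differences of the means between liver and kidney ran from -2.07 for Hsd3b7 to 0.06 for Slc10a1, and those between liver and brain from -2.12 for Hsd3b7 to -0.07 for Baat.

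**Figure D4:**
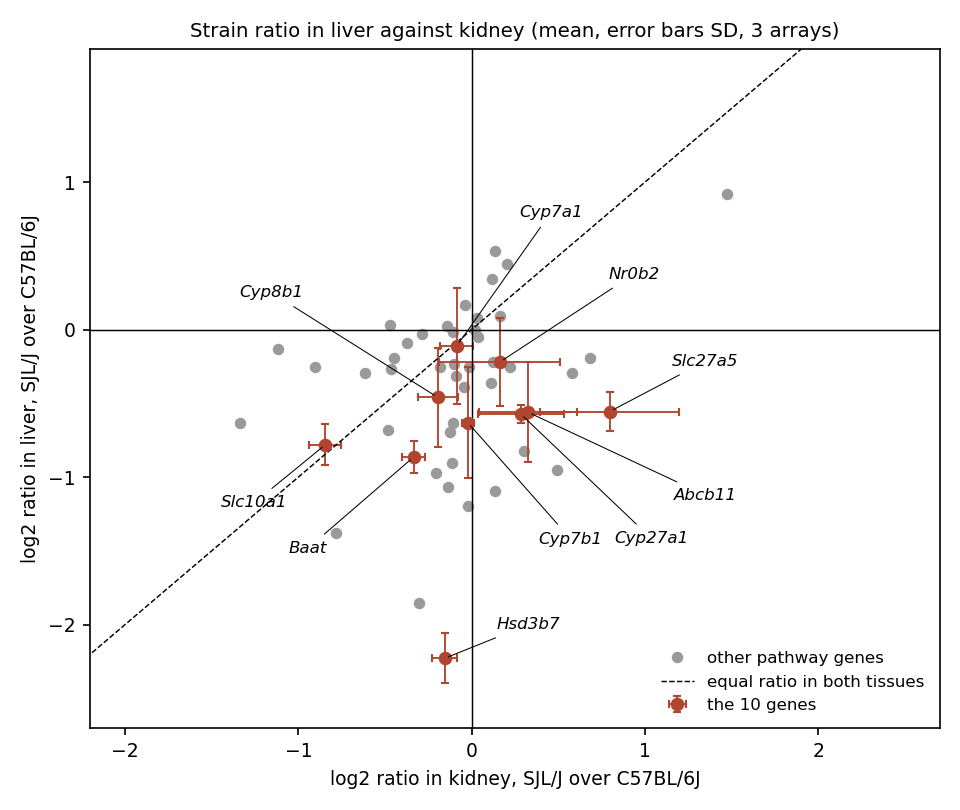
Mean log2 strain ratio in liver (vertical axis) against kidney (horizontal axis) of the 10 genes (red, error bars SD over 3 arrays) and of 42 other genes of bile acid metabolism (grey), with a dashed line where both tissues have the same ratio. Slc10a1 lies near the line at -0.78 and -0.84, whereas Hsd3b7 lies far below it and Slc27a5, at -0.56 in liver and 0.80 in kidney, to its right.

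Markers of the cell types of liver were set beside these values. Of 13 measured hepatocyte markers 6 rose, 2 fell and 5 did not pass in liver, against 13.2% higher and 12.2% lower among all rows. Their median was 0.54, opposite in sign to the median of the 10 genes, but single markers ran from -1.69 (Tdo2) to 1.14. Apoa1, called as higher, had 1.94, 1.47 and -0.39 on liver replicates 1, 2 and 3. Of 5 cholangiocyte markers 1 fell (median -0.04), of 6 Kupffer cell markers 1 rose (median 0.20), and of 7 stellate cell markers 2 fell (median -0.24). Of 5 endothelial markers none passed, nor did any at an unadjusted p under 0.05 (median -0.01). Of 11 markers of pancreatic acinar cells 4 rose and 1 fell (median 0.24). Gp2, at 3.79 ± 0.25 (SD, n = 3), stood far above the rest, which ran from -0.31 (Cela2a) to 0.57 (Cela3b). Marker calls were not examined with arrays left out or with line and column medians subtracted. The part of these markers in the ratios of the bile acid genes was not tested.

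The pattern of Hsd3b7 over the 9 arrays was set against 13186 genes without a probe at a multiple of 8, by the root mean square difference of log2 ratios. The nearest was Appbp2 (0.297, Pearson r 0.99), which binds the amyloid precursor protein and had -1.82 ± 0.28 in liver (SD, n = 3). It was followed by the histone deacetylase gene Hdac1 (0.314), the cytochrome P450 gene Cyp3a16 (0.318), the translation release factor gene Etf1 (0.324) and Oat, ornithine aminotransferase (0.330). Their liver means ran from -2.58 for Oat to -1.81 for Cyp3a16, and their kidney and brain means from -0.38 to 0.19. Of the 10 genes, 7 others were ranked, of which the nearest was Cyp7b1 (0.960, rank 492) and the farthest Cyp7a1 (1.25, rank 4043). The arrays of a tissue share their pools, so these are descriptions over 9 arrays without a test.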

How the data were processed

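RNA pools of 2 strains were compared on 9 spotted arrays. The submitters' processing notes name R 2.0.0 and limma. The deposited log2 ratios (base inferred) had the same sorted values in all 9 columns, so the authors had made the distributions equal, from -3.91 to 5.09, and 0 values were missing. For background correction and scaling within arrays, the method was not given in the sources used here. The channel 1 tissue label of kidney and liver arrays reads brain, and the titles were followed.

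Probes were named through the platform annotation (16874 with 1 symbol, 134 with several, 6032 unnamed here), of which 16196 matched the gene table of GRCm38.p6. Probes of a gene were averaged, which with all other probes gave 21262 rows. A limma model (3.58.1, R 4.3.3) with 1 coefficient per tissue over 9 arrays left 6 residual degrees of freedom. Tissue means against 0 and tissue contrasts were tested two-sided at an adjusted p of 0.05 (Benjamini-Hochberg), after the code was tested on simulated data. Intensities were not used here. Precision is limited by the number of arrays, by the single pair of pools per tissue and by the fixed dyes.

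The members and lists were chosen with earlier results of these data known. Named besides the members are, per list, up to 4 genes per direction in liver and up to 2 in kidney and brain that passed with the same sign on all 3 arrays, and the 5 genes most like Hsd3b7. Outside this rule, Nr1h4, Vdr, Slco1b2, Nnt, Gapdh and single cell type markers are named as well.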

Additional observations from a re-analysis of the deposited data

Results flagged for a closer look

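Of the 10 genes, 3 had all liver arrays on one side of 0 and all arrays of another tissue on the other. The liver minus kidney difference was -1.35 for Slc27a5, -0.89 for Abcb11 and -0.85 for Cyp27a1, and the liver minus brain difference was -0.75 for Slc27a5. No test of these differences is given, because the genes were chosen with their ratios in view.

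Among the other named genes, tissue contrasts by limma passed an adjusted p of 0.05 as follows. Lower in liver than in kidney were the strain ratios of Abcc3 (-1.55), Abcb1a (-1.45), Hsd17b4 (-1.23), Nr1i3 (-1.18), Cebpa (-1.13), Akr1c14 (-0.93), Acot8 (-0.87), Ch25h (-0.87), Abcd3 (-0.76) and Prox1 (-0.47). Higher in liver than in kidney were those of Nr5a2 (0.99), Abcg2 (0.70) and Nr1i2 (0.65). The probes of Nr5a2, Abcg2 and Nr1i2 lie at multiples of 8, as do those of Abcc3 and Akr1c14. Lower in liver than in brain were Abcc3 (-1.84), Nr1i3 (-1.45), Hsd17b4 (-1.14), Abcb1a (-1.11), Cebpa (-1.0002) and Abcd3 (-0.82), and higher was Abcg2 (1.13). Nr1i2 was lower in kidney than in brain (-0.59).

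Several of these calls depended on single arrays. Between liver and kidney, Acot8 (-0.52 without kidney replicate 1) and Prox1 were lost with any 1 liver array left out and with some arrays of kidney or brain left out. Also between liver and kidney, Akr1c14, Abcg2 and Nr5a2 were lost without liver replicate 1, and each also without at least 1 kidney array. Between liver and brain, Abcb1a had -0.72 without liver replicate 2, and its call was lost without any 1 kidney array, without liver replicate 3 and without brain replicate 1 or 2. Nr1i2 was lost between kidney and brain without any 1 kidney array and without brain replicate 1 or 2.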

How the results depend on the processing

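Direction was kept for every called ratio of the 10 genes under the 19 alternatives run. These genes were chosen with their ratios in view, so neither this nor any count of their calls below is a sign of robustness. Of the recomputed means of these genes, 555 moved by less than their SD over arrays. Most of these could not have moved further, so that count is no sign of robustness. Each gene has 1 probe, so many settings leave its mean unchanged, and leaving out 1 array shifts a mean by less than its SD. Another 9 means moved further, with line and column medians subtracted. That setting gave 3 called genes of the 10 in liver, 11 other pathway genes in liver, 4 in brain and 0 for kidney minus brain. Without probes at multiples of 8, which leaves 8 of the 10 genes and 33 of 42 others, the 10 genes gave 1 call in kidney and 0 in brain, and the others 11 in liver, 5 in kidney, 3 in brain, 7 for liver minus kidney, 5 for liver minus brain and 0 for kidney minus brain. With each tissue on its own arrays, brain gave 1 call among the 10 genes and 2 among the others. Array weights gave 4 calls for kidney minus brain.

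Leaving out 1 array gave 5 to 8 calls among the 10 genes in liver, 2 to 3 in kidney and 2 to 2 in brain. For the other genes it gave 11 to 20 in liver, 7 to 13 in kidney, 2 to 7 in brain, 9 to 16 for liver minus kidney, 6 to 9 for liver minus brain and 0 to 2 for kidney minus brain. Same-numbered arrays of different tissues had correlations of deviations of -0.09 to 0.06, so the numbers were not taken to pair arrays, and the replicate block gave 4 calls of other genes in brain and 0 for kidney minus brain. Where a count moved, the cause was not tested. The share of all rows called was counted only with all arrays and, for brain, without replicate 3, so the other counts have no such share beside them. Without intensities, the effect of dim spots could not be examined.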
